A study of Mus musculus with 12 samples.

Results

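Collagen genes were taken as every gene whose symbol reads Col, a number, the letter a and a number. This gave 44 of the 49315 genes in the count table. By the structure of the chain they encode, 11 are fibrillar, 6 belong to the type IV collagens of basement membranes, 6 to the type VI collagens of beaded filaments and 9 to the FACIT collagens, which attach to the surface of fibrils. The other 12 encode 4 transmembrane collagens, 3 short-chain network collagens, 2 multiplexins, the anchoring fibril collagen Col7a1 and the unclassed Col26a1 and Col28a1.

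RNA was sequenced from epididymal white adipose tissue (eWAT), the fat pad beside the epididymis, of 12 male, age-matched mice on a high-fat diet (HFD, 60% fat) for 12 weeks. The mice were Mir181a2b2 flox/flox (flox), which carry the loxP-flanked locus, or Mir181a2b2-/- (KO), which lack it in all tissues rather than in 1 cell type. Mice of each genotype received weekly i.p. injections of vehicle or of methotrexate (MTX, 1 mg/kg), a folate antagonist used against inflammatory disease, so that the 4 groups of 3 mice were flox, KO, flox MTX and KO MTX. The design asks how far the response of eWAT to MTX depends on the deleted locus. All groups share the diet, and no library of mice on another diet was analysed here.

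Collagens are secreted proteins built from chains that wind into a triple helix. Fibrillar collagens of types I, III and V form the tensile fibers between cells and come mainly from fibroblasts, whereas type IV collagens form the sheet that surrounds adipocytes, vessels and epithelia, and type VI collagens link that sheet to the fibers. Expanding fat pads lay down collagen around adipocytes, and excess deposition is known as fibrosis of the fat.

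The locus deleted in KO mice encodes the hairpins Mir181a-2 and Mir181b-2 on chromosome 2, and the mature 5' strands they give are shown because their seed defines which mRNAs they can pair with. The sequences are those of RefSeq on GRCm38.p6, plus strand, at chr2:38852741-38852763 and chr2:38853845-38853868, and capitals mark the seed, bases 2 to 8.
miR-181a-5p: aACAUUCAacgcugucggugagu
miR-181b-5p: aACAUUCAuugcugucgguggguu
Both strands carry the same seed. Per the study, mature Mir181b also comes from another cluster, Mir181a-1 and Mir181b-1. The KO deletes Mir181a-2 and Mir181b-2 only, so it need not remove all of the mature miRNA. The mRNA libraries cannot check the deletion, since Mir181b-2 had 0 counts in all 12 libraries and Mir181a-2 had 0 counts in 11 and 2 counts in the remaining library, a flox MTX mouse.

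Depth ranged from 19495310 to 23976469 counts per library. Values in CPM, counts relative to the library size, are scaled with TMM factors and are given in the order of the replicate numbers, which are 1, 3 and 4 in flox, 1, 2 and 3 in KO, 1, 2 and 4 in flox MTX and 2, 3 and 4 in KO MTX. The 11 adipocyte markers were above 3 counts in all libraries, with a summed level of 19770 to 63250 CPM. The 3 flox libraries also held markers of neighbouring tissue: the summed level of 15 epididymis markers was 1872 to 16200 CPM in flox against 6.88 to 16.9 in KO, 5.73 to 548.5 in flox MTX and 1.68 to 15.7 in KO MTX. For 12 testis germ cell markers it was 227 to 555.5 CPM in flox and 10.9 to 39.8 in the other groups, and for 7 epithelial markers 290 to 1389 CPM in flox and 6.06 to 67.0 in the other groups. Of the 11 adipocyte markers 2 fell in KO against flox, of 9 mural cell and 5 Schwann cell markers tested none was called, and of 7 skeletal muscle markers tested 2 rose, while 4 of 9 mesothelial markers rose. Flox on vehicle is therefore set apart from the other 3 groups by these tissues in every library, and every comparison with flox vehicle holds both differences.

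Of the 44 genes, 38 passed the filter on low counts. The 6 that did not were Col9a1, Col9a2 and Col19a1, with at most 8 counts in any library, Col10a1 with at most 11, Col11a1 with at most 21 and Col25a1 with at most 26. Compared per kilobase of exon (RPKM, mean of the 12 libraries), the most abundant collagen mRNA was Col3a1 at 231.5, followed by Col4a1 at 213, Col6a1 at 183, Col4a2 at 177 and Col1a1 at 169. Col5a3, a fibrillar type V chain, stood at 108 RPKM, close to Col6a2 at 107, Col15a1 at 102 and Col1a2 at 100.5. The length used merges all annotated exons of a gene, 12426 bases for Col1a2 and 6563 for Col1a1, and the order depends on it. The 8 genes with the most counts held 80.8% of all collagen counts.

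Collagen mRNA took a larger share of the library in KO than in flox. The share of all counts was 0.832% ± 0.228 (SD, n = 3) in flox, 1.44% ± 0.196 in KO, 1.10% ± 0.162 in flox MTX and 1.48% ± 0.0437 in KO MTX. Most of the difference lay in the fibrillar class, which took 0.295, 0.245 and 0.416% of the counts of the flox libraries and 0.642, 0.732 and 1.06% of those of KO. It took 0.563, 0.540 and 0.375% in flox MTX and 0.823, 0.826 and 0.721% in KO MTX. Every KO and KO MTX library thus lay above every flox and flox MTX library, while flox MTX overlapped flox. The type IV share was 0.251% ± 0.0769 in flox and 0.276% ± 0.0246 in KO, with overlapping libraries. As a share of collagen counts alone, fibrillar chains made up 38.5% ± 5.63 in flox, 55.6% ± 7.46 in KO, 44.8% ± 8.63 in flox MTX and 53.6% ± 4.46 in KO MTX. In bulk tissue, more cells of a type and more RNA per cell cannot be told apart.

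**Figure D1:**
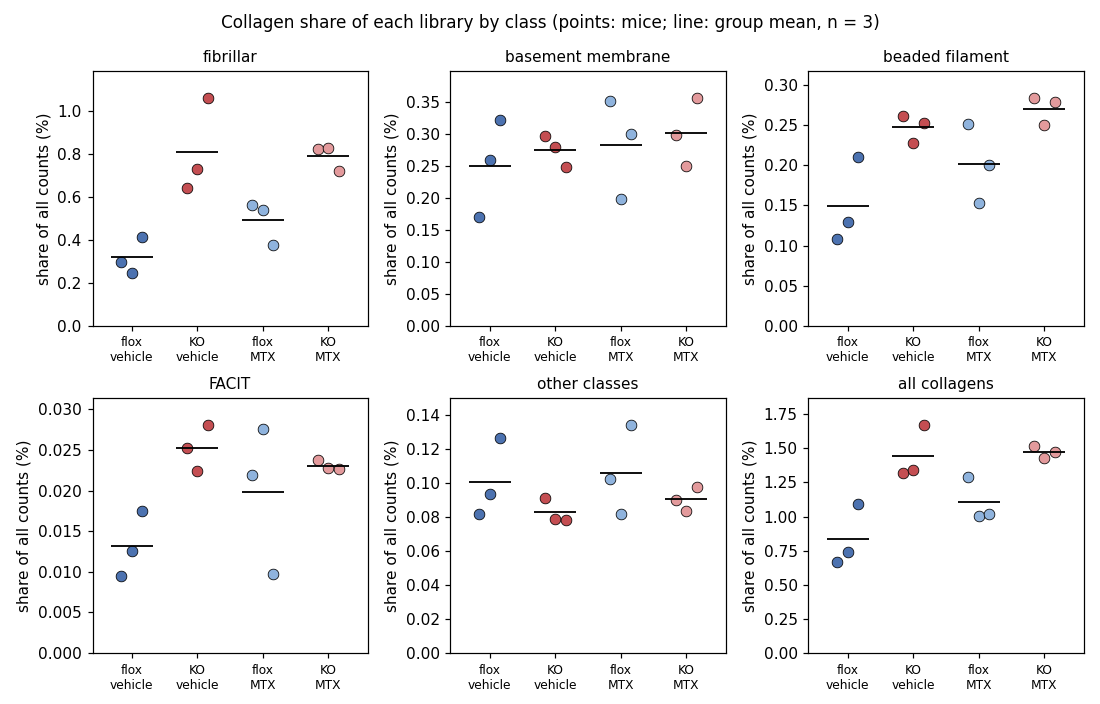
Share of all counts (%) taken by each collagen class in every library; points are mice, and the line is the mean of the 3 mice of a group. The fibrillar share lay at 0.245% to 0.416% in flox and at 0.642% to 1.06% in KO, while the type IV shares of the groups overlapped.

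The first comparison asks what deletion of the locus changed in eWAT without MTX. Of the 38 collagen genes tested, 10 rose and 7 fell in KO against flox (adjusted p below 0.1 and at least 1.5-fold), while 13.9% of all 18702 genes tested rose and 17.8% fell. The collagen shares were 26.3% higher, above the background, and 18.4% lower, near it. The median log2 fold change of the 38 was 0.17, against -0.06 for all genes. Among the 10 that rose were the major fibrillar chains Col1a1, Col1a2, Col3a1 and Col5a2 and the type VI chains Col6a1 and Col6a3. Among the 7 that fell were the type IV chains Col4a3 and Col4a4 and the epithelial collagens Col7a1 and Col17a1. Col2a1 and Col22a1, which both fell, passed the low-count filter through the flox libraries alone, and a gene that passes in this way has to be higher there; the 5 others that fell did not depend on flox to pass. Adjusted p-values here and below are from edgeR's quasi-likelihood test over all genes tested, and fold changes are on the log2 scale.

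**Figure D2:**
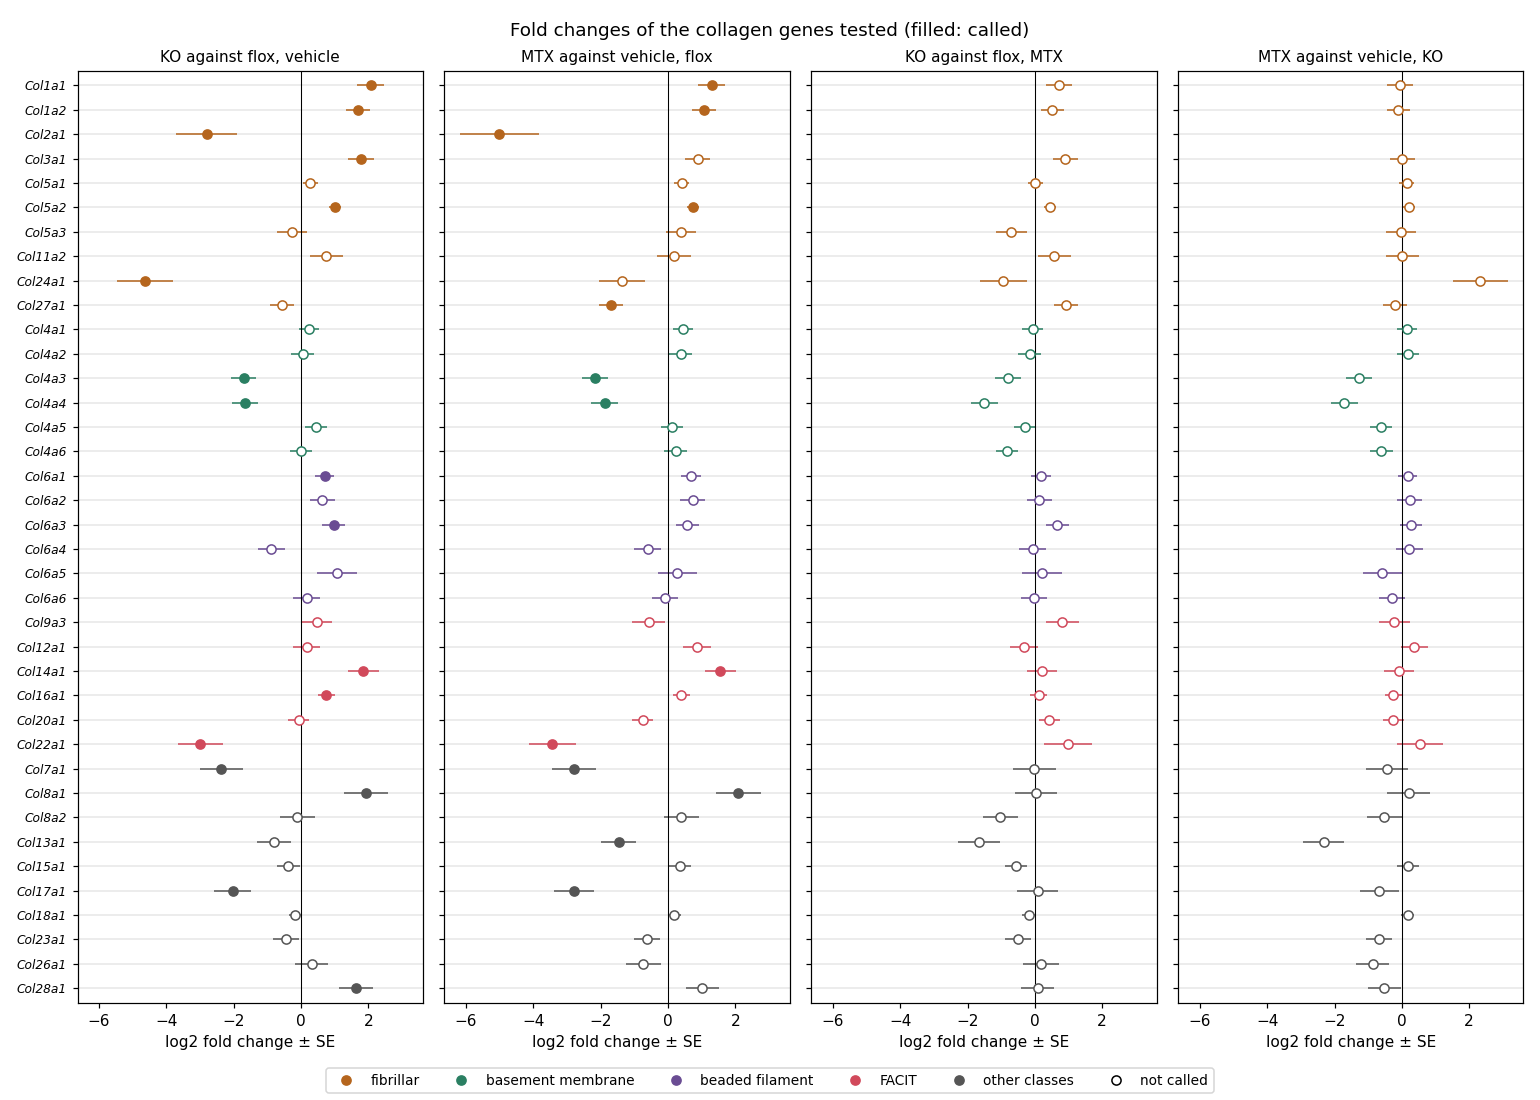
Log2 fold change of each collagen gene tested, with its standard error, in 4 comparisons; colors give the class, and filled points were called. In KO against flox under vehicle 17 points are filled and in MTX against vehicle in flox mice 13, whereas no point is filled in the other 2 panels. Col2a1, at 0 counts in KO MTX, is left out of these.

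Type I collagen, a trimer of the products of Col1a1 and Col1a2, is the main fiber of connective tissue. Col1a1 was at 329.9, 287 and 516 CPM in flox, 1090, 1401 and 2281 in KO, 1076, 1257 and 462 in flox MTX and 1735, 1577 and 1306 in KO MTX. All KO and KO MTX libraries were above all flox libraries, and flox MTX replicate 4 lay within the flox range. The log2 fold change in KO against flox was 2.07 ± 0.40 (SE), adjusted p = 0.00476, and for Col1a2, at 347 to 663 CPM in flox and 1269 to 2385 in KO, it was 1.69 ± 0.36 (SE), adjusted p = 0.00609. Col3a1 was at 874.5, 584 and 1336 CPM in flox, 2537, 2718 and 4373 in KO, 2452, 1646 and 1074 in flox MTX and 3500, 3282 and 2896 in KO MTX; its product forms type III collagen, which copolymerizes with type I. The KO libraries did not overlap flox (log2 fold change 1.78 ± 0.38 (SE), adjusted p = 0.00644). Col5a2 was at 125.5, 119 and 179 CPM in flox, 256, 257 and 337 in KO, 251.5, 226 and 235 in flox MTX and 328, 317 and 332 in KO MTX. Its chain belongs to type V collagen, which starts these fibrils, and it rose as well (1.00 ± 0.18 (SE), adjusted p = 0.00383). The partner chains Col5a1 and Col5a3 were not called, with log2 fold changes of 0.28 ± 0.22 and -0.28 ± 0.45. Beside these genes, 8 of 10 fibroblast markers rose and 1 fell, and their summed level was 468 to 859 CPM in flox and 1471 to 1568 in KO. Their part in the rise of the fibrillar chains was not tested.

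**Figure D3:**
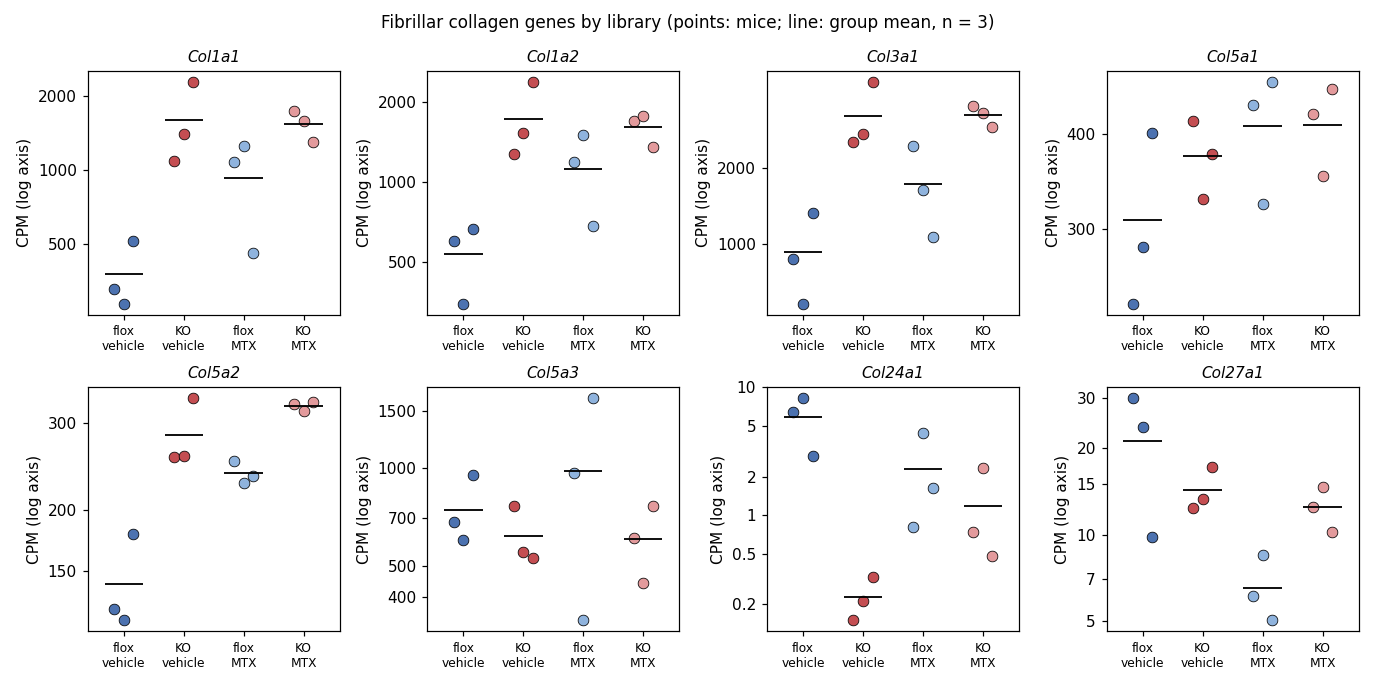
CPM (log axis, range set per panel) of 8 fibrillar collagen genes in each library; points are mice, and the line is the mean of 3. Col1a1, Col1a2, Col3a1 and Col5a2 were higher in every KO library than in every flox library, Col5a1 and Col5a3 overlapped, and Col24a1 was below 0.33 CPM in KO.

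Of the less abundant fibrillar genes, Col24a1, a collagen known from developing bone, and Col2a1, the main collagen of cartilage, fell. Col24a1 was at 6.41, 8.24 and 2.90 CPM in flox, 0.151, 0.211 and 0.328 in KO, 0.802, 4.40 and 1.62 in flox MTX and 0.739, 2.34 and 0.480 in KO MTX. Flox lay above KO in every library (log2 fold change -4.63 ± 0.83 (SE), adjusted p = 0.00388), which was the largest change of any collagen gene in this comparison, and the KO MTX libraries lay above those of KO. The KO libraries held only 3 to 7 counts of Col24a1, 15 in all, against 421 in flox and 82 in KO MTX. The size of the change and the order of KO and KO MTX thus rest on few reads. Col2a1 was at 0.650, 2.47 and 0.738 CPM in flox, 0.101, 0.381 and 0.0468 in KO, 0, 0 and 0.125 in flox MTX and 0, 0 and 0 in KO MTX, where a count of 0 allows up to 3 counts. The gene had 94 counts in the 3 flox libraries together and 12 in those of KO (log2 fold change -2.80 ± 0.91 (SE), adjusted p = 0.0469). Col2a1 passed the low-count filter through flox alone, so that these values are no support for its fall. Of 7 cartilage markers, 4 were tested and 2 fell, with a summed level of 23.9 to 31.5 CPM in flox and 27.3 to 45.9 in KO. Col27a1, at 9.82 to 29.9 CPM in flox and 12.4 to 17.2 in KO, was not called (-0.56 ± 0.35), nor was Col11a2 (0.75 ± 0.49).

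The 250 bases before the start site are shown for Col1a2 and Col3a1, which rose, and for Col5a3 and Col15a1, of like RPKM to Col1a2, which were not called. They are taken from RefSeq on GRCm38.p6, where 35 of the 44 genes had a promoter entry, at chr6:4505368-4505617 (plus strand), chr1:45311288-45311537 (plus strand), chr9:20815068-20815317 (minus strand) and chr4:47207762-47208011 (plus strand). Capitals mark 3 motifs searched on both strands, with no overlap between matches in these windows. The TATA box was searched as TATAAA. The CCAAT box was searched by the letters of its name, and the GC box as GGGCGG.
Col1a2: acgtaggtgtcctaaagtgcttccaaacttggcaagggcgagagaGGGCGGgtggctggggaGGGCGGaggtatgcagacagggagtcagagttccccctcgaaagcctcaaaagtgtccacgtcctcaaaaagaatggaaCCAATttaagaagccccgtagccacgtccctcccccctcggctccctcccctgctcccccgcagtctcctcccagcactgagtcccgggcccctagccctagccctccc
Col3a1: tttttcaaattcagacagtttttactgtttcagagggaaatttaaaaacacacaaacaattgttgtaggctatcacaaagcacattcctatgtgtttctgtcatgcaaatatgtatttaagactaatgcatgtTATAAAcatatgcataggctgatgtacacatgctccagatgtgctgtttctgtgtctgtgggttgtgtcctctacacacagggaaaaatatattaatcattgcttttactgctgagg
Col5a3: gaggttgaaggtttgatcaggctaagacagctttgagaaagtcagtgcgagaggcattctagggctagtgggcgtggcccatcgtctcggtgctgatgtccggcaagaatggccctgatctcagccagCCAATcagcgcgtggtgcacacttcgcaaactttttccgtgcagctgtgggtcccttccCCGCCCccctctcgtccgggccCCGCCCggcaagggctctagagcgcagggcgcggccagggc
Col15a1: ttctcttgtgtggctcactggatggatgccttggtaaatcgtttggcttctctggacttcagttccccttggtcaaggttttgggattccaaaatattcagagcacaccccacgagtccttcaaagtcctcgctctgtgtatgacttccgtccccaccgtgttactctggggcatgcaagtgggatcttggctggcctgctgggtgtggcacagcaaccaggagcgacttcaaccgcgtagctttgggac
Col1a2 held a CCAAT box 109 to 105 bases before its start and a pair of GC boxes further upstream, and Col5a3 held a CCAAT box 122 to 118 bases before its start and a pair of GC boxes within 63 bases of it. Col3a1 held the TATAAA letters 117 to 112 bases before its start and neither other motif, and Col15a1 held none of them. Over the 35 collagen genes with a promoter entry, 21 (60.0%) held a GC box, 13 (37.1%) a CCAAT box and 5 (14.3%) a TATA box, against 32.7%, 33.9% and 12.4% of all 32851 promoter entries. A collagen gene was counted if any of its entries held the box, so that the units of these shares differ. The promoter of a gene that rose and that of one not called thus held the same kinds of boxes in Col1a2 and Col5a3. Matches are a description of the letters only.

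The 6 type IV genes lie in 3 head-to-head pairs, and the members of a pair encode chains of the same or related trimers. The start sites of Col4a1 (chr8:11198423-11312826) and Col4a2 (chr8:11312805-11449287) are 21 bases apart, so that the genes overlap there, those of Col4a3 (chr1:82586921-82722059) and Col4a4 (chr1:82448423-82586849) 72 bases apart and those of Col4a5 (chrX:141475385-141689234) and Col4a6 (chrX:141165403-141474076) 1309 bases apart, all in GRCm38. Neither Col4a1 nor Col4a2, the chains of nearly every basement membrane, was called. Col4a1 was at 958, 1254 and 1708 CPM in flox, 1704, 1497 and 1406 in KO, 2189, 1120 and 2087 in flox MTX and 1765, 1366 and 2009 in KO MTX. Col4a2 was at 647.5, 1085 and 1382 CPM in flox, 1201, 1055 and 971 in KO, 1743, 786 and 1542 in flox MTX and 1231, 943 and 1483 in KO MTX. In both genes, flox MTX replicate 2 and flox replicate 1 were low, and the groups overlapped (log2 fold changes in KO against flox of 0.23 ± 0.30 and 0.05 ± 0.34).

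Col4a3 and Col4a4, whose chains are confined to specialized membranes such as that of the kidney glomerulus, fell together. Col4a3 was at 4.42, 10.4 and 8.99 CPM in flox, 2.67, 2.29 and 2.34 in KO, 2.12, 1.14 and 2.00 in flox MTX and 0.652, 1.08 and 1.27 in KO MTX. Col4a4 was at 11.7, 22.4 and 22.8 CPM in flox, 5.84, 8.67 and 3.42 in KO, 6.47, 3.68 and 5.37 in flox MTX and 1.70, 1.34 and 2.44 in KO MTX. In both, every flox library was above every library of the other 3 groups, and for Col4a4 every KO MTX library was below every other. The log2 fold change in KO against flox was -1.70 ± 0.38 (SE), adjusted p = 0.00743 for Col4a3 and -1.67 ± 0.39 (SE), adjusted p = 0.00924 for Col4a4. An RNA on the opposite strand, C430014B12Rik, overlaps 5.65% of the exon bases of Col4a3, with 275 counts over the 12 libraries against 889 for Col4a3, and the strand setting of the counting is not given.

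Neither gene of the pair on chromosome X was called. Col4a5 was at 26.6, 12.2 and 21.6 CPM in flox, 23.1, 29.8 and 29.3 in KO, 28.6, 24.3 and 13.2 in flox MTX and 13.4, 22.1 and 18.2 in KO MTX. Col4a6 was at 11.7, 8.90 and 8.44 CPM in flox, 7.40, 13.1 and 8.66 in KO, 11.7, 15.2 and 7.12 in flox MTX and 4.87, 8.96 and 5.33 in KO MTX. Their groups overlapped in KO against flox (log2 fold changes 0.44 ± 0.33 and 0.00 ± 0.33), and in both genes the lowest group mean was that of KO MTX.

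**Figure D4:**
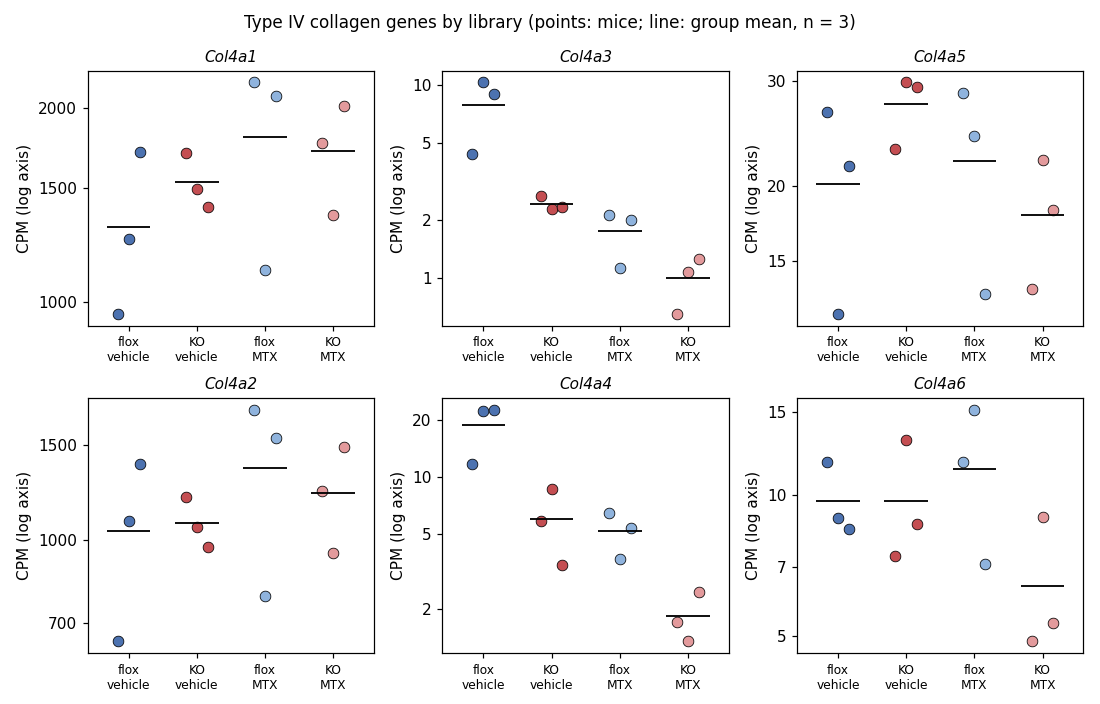
CPM (log axis, range set per panel) of the 6 type IV collagen genes in each library; points are mice, and the line is the mean of 3, with the members of a gene pair in 1 column. Col4a3 and Col4a4 were highest in the 3 flox libraries, at 4.42 to 10.4 and 11.7 to 22.8 CPM, whereas flox and KO overlapped for the other 4 genes.

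Type VI collagen, a microfilament built from the products of Col6a1, Col6a2 and Col6a3, is abundant around adipocytes. Col6a1 was at 351, 477 and 758 CPM in flox, 982, 715 and 880.1 in KO, 1013, 616 and 927 in flox MTX and 1082, 818 and 1006 in KO MTX. Col6a2 was at 357, 488 and 916 CPM in flox, 1082, 720.5 and 936 in KO, 1226, 569 and 1137 in flox MTX and 1229, 859 and 1134 in KO MTX. Col6a3 was at 112, 169 and 272 CPM in flox, 339, 348 and 396 in KO, 363, 158 and 306 in flox MTX and 427, 449.5 and 439 in KO MTX. Col6a3 was higher in every KO than in every flox library (log2 fold change 0.97 ± 0.33 (SE), adjusted p = 0.0488), whereas flox replicate 4 lay within the KO range for Col6a1 (0.70 ± 0.29 (SE), adjusted p = 0.0949) and Col6a2 (0.64 ± 0.37 (SE), adjusted p = 0.222). Col6a4, Col6a5 and Col6a6, whose products can stand in for that of Col6a3, were not called, at log2 fold changes of -0.88 ± 0.40, 1.06 ± 0.60 and 0.17 ± 0.39.

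Among the FACIT genes, Col14a1, which binds the surface of type I fibrils, rose with them. Col14a1 was at 17.1, 14.6 and 46.9 CPM in flox, 79.6, 78.0 and 127 in KO, 82.5, 109 and 39.1 in flox MTX and 93.9, 99.9 and 73.1 in KO MTX. All KO libraries were above flox (log2 fold change 1.85 ± 0.47 (SE), adjusted p = 0.0128). Col16a1 was at 58.0, 70.0 and 81.6 CPM in flox, 135, 102 and 116 in KO, 114, 107 and 53.6 in flox MTX and 103, 87.0 and 107 in KO MTX, and the change in KO was smaller (0.75 ± 0.25 (SE), adjusted p = 0.0452). Col22a1 was at 1.52, 3.14 and 3.27 CPM in flox, 0.503, 0.211 and 0.281 in KO, 0.189, 0.227 and 0.312 in flox MTX and 0.391, 0.0866 and 0.961 in KO MTX. Every flox library was above every other library for this collagen of tissue junctions (KO against flox -2.99 ± 0.67 (SE), adjusted p = 0.00756), with 254 counts in all 12 libraries. Col22a1 passed the low-count filter through flox alone and so had to be higher there. Neither the separation nor the p-value is support for its fall. Col9a3, Col12a1 and Col20a1 were not called, with log2 fold changes of 0.47 ± 0.47, 0.17 ± 0.41 and -0.07 ± 0.30.

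Of the other 12 genes, Col8a1, a short-chain collagen of vessel walls and basement membranes, and Col28a1 rose. Col8a1 was at 6.15, 5.88 and 11.5 CPM in flox, 20.0, 17.3 and 52.4 in KO, 11.9, 71.6 and 16.8 in flox MTX and 37.2, 41.8 and 24 in KO MTX. KO lay above flox in every library (log2 fold change 1.93 ± 0.66 (SE), adjusted p = 0.0490), and the highest value of all was in flox MTX replicate 2. Col28a1 was at 2.64 to 5.99 CPM in flox and 11.1 to 19.8 in KO (1.63 ± 0.50 (SE), adjusted p = 0.0315). The multiplexins Col15a1 and Col18a1, which sit at the outer face of basement membranes and of which Col18a1 is the source of endostatin, were not called. Col15a1 was at 534, 569 and 867 CPM in flox, 604, 458 and 461 in KO, 810.1, 452 and 1267 in flox MTX and 599.9, 488 and 631 in KO MTX. Col18a1 was at 217, 223 and 325 CPM in flox, 246, 216 and 220.3 in KO, 306, 238 and 332 in flox MTX and 254, 232 and 282 in KO MTX. Their log2 fold changes in KO against flox were -0.37 ± 0.33 and -0.17 ± 0.19, with overlapping groups. Col8a2, Col13a1, Col23a1 and Col26a1 were not called either.

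Col7a1, the anchoring fibril that ties epithelia to connective tissue, and Col17a1, a transmembrane collagen of the hemidesmosomes of epithelial cells, fell. Col7a1 was at 16, 31.7 and 5.49 CPM in flox, 2.57, 3.6 and 4.17 in KO, 3.59, 3.27 and 0.812 in flox MTX and 2.17, 3.77 and 1.70 in KO MTX. Col17a1 was at 3.38, 5.77 and 1.66 CPM in flox, 1.16, 0.508 and 0.983 in KO, 0.944, 0.227 and 0.375 in flox MTX and 0.522, 0.520 and 0.611 in KO MTX. In both, every flox library was above every other library, and within flox the order was replicate 3, then 1, then 4. The epithelial markers summed to 1389 CPM in replicate 3, 569.6 in replicate 1 and 290 in replicate 4, the same order, and the epididymis markers also held it, at 16200, 5710 and 1872 CPM. The testis germ cell markers did not, at 476 CPM in replicate 3, 555.5 in replicate 1 and 227 in replicate 4. The log2 fold changes in KO against flox were -2.36 ± 0.64 (SE), adjusted p = 0.0180 for Col7a1 and -2.03 ± 0.56 (SE), adjusted p = 0.0196 for Col17a1. In the same comparison all 7 epithelial markers fell, as did 7 of the 10 epididymis markers tested and 11 of 12 testis germ cell markers. For Col24a1 the order within flox was the same, whereas Col2a1, Col4a3, Col4a4 and Col22a1 were lower in replicate 1 than in replicate 4. The part of these tissues in the 7 falls was not tested.

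**Figure D5:**
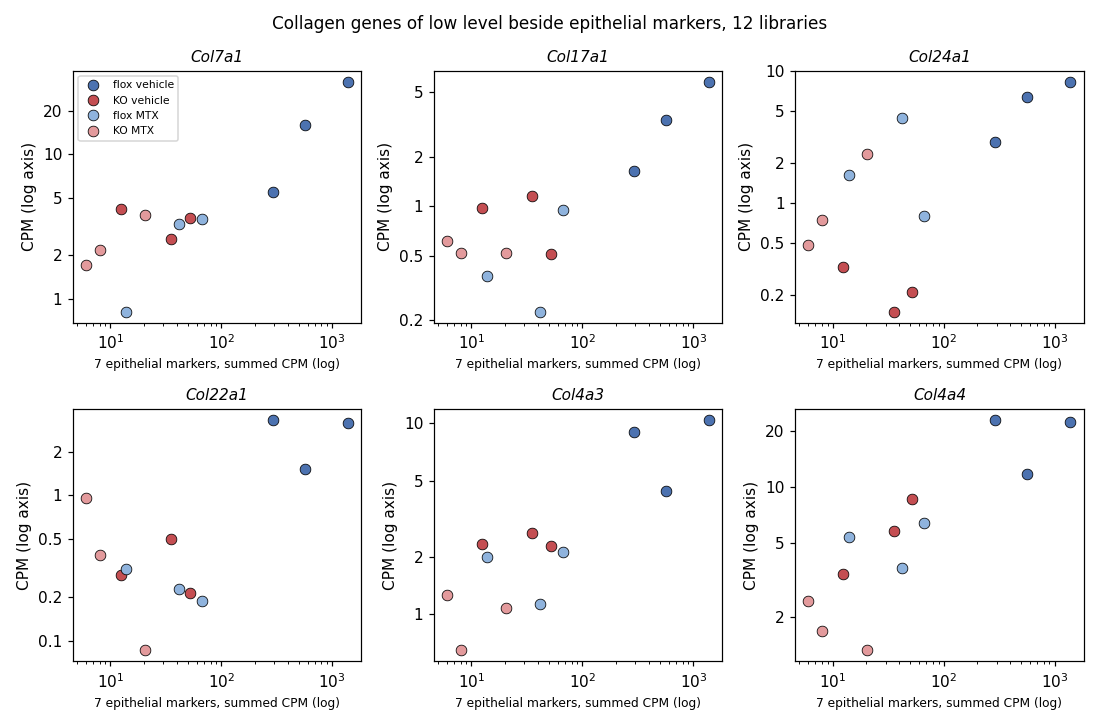
CPM of 6 collagen genes that fell in KO against flox (log axis, range set per panel) against the summed CPM of 7 epithelial markers (log axis) in each of the 12 libraries. The 3 flox libraries lie to the right, at 290 to 1389 CPM of epithelial markers, with the highest values of Col7a1, Col17a1, Col22a1, Col4a3 and Col4a4, while for Col24a1 a flox MTX library at 4.40 CPM lies above 1 of them. Col22a1 passed the low-count filter through flox alone.

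The calls in this comparison varied with the libraries. Of the 17 genes called, Col6a1 lost its call in 12 of 21 alternative settings, Col16a1 in 5, Col6a3 in 4, Col8a1 in 4, Col2a1 in 4 of 20, Col28a1 in 2 and Col5a2 in 1. Leaving out flox replicate 1 ended the calls of Col6a1, Col6a3, Col8a1, Col16a1 and Col28a1 (adjusted p 0.101 to 0.273), and leaving out flox replicate 3 those of Col2a1, Col6a1, Col6a3, Col8a1 and Col16a1 (0.101 to 0.212). Without KO replicate 1 the calls of Col2a1, Col6a1 and Col16a1 were lost (0.120 to 0.200), without KO replicate 2 that of Col6a1 (0.1003), and without KO replicate 3 those of Col2a1, Col6a1, Col6a3 and Col8a1 (0.128 to 0.213). Col8a1 had a log2 fold change of 1.25 without KO replicate 3, and Col2a1 one of -1.91 without flox replicate 3. Without flox replicate 1, 6 collagen genes rose in place of 10, and with a minimum of 10 counts in every library 4 fell in place of 7. That minimum took Col2a1, Col17a1, Col22a1 and Col24a1 out of the test, and Col6a4 was called lower (log2 fold change -0.90, adjusted p = 0.098). The share of all genes called in these settings is not given here. Col1a1, Col1a2, Col3a1, Col14a1, Col24a1, Col4a3, Col4a4, Col7a1 and Col17a1 were called under every alternative that gave them a value. Col22a1 kept its call too, but it passed the low-count filter through flox alone, so that this is no support for its fall.

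The next comparison asks what MTX changed in flox mice. Of the 38 collagen genes, 5 rose and 8 fell in flox MTX against flox, while 8.09% of all genes tested rose and 16.1% fell. The collagen shares were 13.2% and 21.1%, and the median log2 fold change was 0.25 against 0.05 for all genes. The 5 that rose were Col1a1, Col1a2, Col5a2, Col14a1 and Col8a1, and all 5 had also risen in KO. Of the 8 that fell, Col2a1, Col4a3, Col4a4, Col22a1, Col7a1 and Col17a1 had also fallen in KO, and Col27a1 and Col13a1 had not been called there. Both comparisons use the same 3 flox libraries, so that these 11 shared calls are not independent. Col2a1, Col13a1 and Col22a1 passed the filter on low counts through flox alone.

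In this comparison the log2 fold change of Col1a1 was 1.30 ± 0.39 (SE), adjusted p = 0.0417, that of Col1a2 was 1.07 ± 0.35 (SE), adjusted p = 0.0554 and that of Col5a2 was 0.75 ± 0.18 (SE), adjusted p = 0.0171. Every flox MTX library was above every flox library for Col5a2, and narrowly for Col1a2 (684 against 663 CPM) and Col8a1 (11.9 against 11.5 CPM). For Col1a1 and Col14a1 the groups overlapped through flox MTX replicate 4. That library held 39.1 CPM of Col14a1, within the flox range, and 684 CPM of Col1a2, the lowest of the flox MTX libraries. Col3a1 was not called (0.89 ± 0.37 (SE), adjusted p = 0.119), nor was any type VI gene, of which Col6a1 came nearest (0.69 ± 0.29 (SE), adjusted p = 0.121). Col14a1 changed by 1.55 ± 0.46 (SE), adjusted p = 0.0386 and Col8a1 by 2.09 ± 0.66 (SE), adjusted p = 0.0489. Col8a1 rested on flox MTX replicate 2, at 71.6 CPM against 11.9 and 16.8 in the others, and without it the log2 fold change was 0.88 (adjusted p = 0.213). Fibroblast markers summed to 846 to 1229 CPM in flox MTX against 468 to 859 in flox, and 6 of 10 rose; all 12 macrophage markers rose as well, with 501 to 861 CPM in flox and 571 to 4357 in flox MTX, as did all 9 mesothelial markers. Their part in these changes was not tested.

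Among the genes that fell, Col4a3 changed by -2.18 ± 0.39 (SE), adjusted p = 0.00616 and Col4a4 by -1.88 ± 0.39 (SE), adjusted p = 0.0107 on the log2 scale. Col7a1 fell by 2.78 and Col17a1 by 2.79 (adjusted p = 0.0160 and 0.0111), and Col22a1 by 3.44 (adjusted p = 0.00946). Col2a1 had 94 counts in flox and 2 in flox MTX, a ratio of 45.5 with an exact 95% interval of 12.2 to 381, which covers counting error only. Col27a1, a fibrillar chain of developing cartilage, was lower in each flox MTX library, at 6.14, 8.49 and 5.06 CPM, than in flox, at 29.9, 23.7 and 9.82 (-1.69 ± 0.36 (SE), adjusted p = 0.0115). The transmembrane Col13a1 was at 0.182 to 0.50 CPM in flox MTX and 0.693 to 1.45 in flox (-1.46 ± 0.53 (SE), adjusted p = 0.0756). Having passed the low-count filter through flox alone, Col2a1, Col13a1 and Col22a1 had to be higher there, so their values are no support for a fall. All 7 epithelial markers fell in this comparison too, beside 11 of 12 testis germ cell markers.

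Of the 5 genes that rose, Col1a2 lost its call in 7 of 21 alternative settings, Col1a1 in 5, Col8a1 in 5, Col14a1 in 4 and Col5a2 in 2. Without flox replicate 3 the adjusted p was 0.195 for Col1a2, 0.158 for Col1a1, 0.173 for Col8a1 and 0.147 for Col14a1, and without flox replicate 1 it was 0.117 for Col1a1, 0.134 for Col8a1 and 0.120 for Col14a1. For Col1a2 it was also 0.112 and 0.130 when replicate 1 or replicate 2 of flox MTX was left out. The fall of Col13a1 was lost in 10 of 20 settings, and those of the other 7 genes in none. Of these 7, Col2a1 and Col22a1 passed the low-count filter through flox alone, so that their kept calls are no support for a fall. The count of 5 rises was 1 without flox replicate 3, the library with the lowest Col1a1, 2 without flox replicate 1, 11 without flox replicate 4, and 8 or 9 when replicate 2 or replicate 4 of flox MTX was left out. The share of all genes called without a library is not given beside these counts. Scaling by library size alone, which moved the median log2 fold change of all genes by -0.20, gave 3 collagen rises and 8 falls, and over all genes 766 rises and 3607 falls in place of 1513 and 3015. With a minimum of 10 counts in every library, 4 genes fell in place of 8. That minimum took Col2a1, Col13a1, Col17a1 and Col22a1 out of the test, and the share of all genes called under it is not given.

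A further comparison asks whether KO and flox mice differed once both had received MTX. No collagen gene was called in KO MTX against flox MTX by edgeR, and 0% of all genes tested were called in either direction. At an unadjusted p below 0.05 there were 3 higher and 3 lower collagen genes of 38, against 11.5% and 12.9% of all genes. The lowest adjusted p was that of Col4a4, with a log2 fold change of -1.50 ± 0.40 (SE), adjusted p = 0.106, and every KO MTX library lay below every flox MTX library. Col4a6 (-0.83 ± 0.34) and Col13a1 (-1.66 ± 0.64) were the others at the lower end. Col3a1 (0.90 ± 0.37 (SE), adjusted p = 0.174), Col5a2 (0.46 ± 0.18 (SE), adjusted p = 0.155) and Col27a1 (0.92 ± 0.36 (SE), adjusted p = 0.154) were at the upper end, and in each of these the groups did not overlap. Col1a1 was also higher in every KO MTX library than in every flox MTX library (0.72 ± 0.39 (SE), adjusted p = 0.274). The share of all genes whose groups did not overlap is not given here, so that these separations cannot be set against a background. DESeq2 called 4 collagen genes in this comparison, Col3a1 and Col27a1 higher and Col4a4 and Col4a6 lower. Without flox MTX replicate 2, edgeR called 7, with 3 higher (Col9a3, Col20a1 and Col27a1) and 4 lower (Col4a4, Col5a3, Col13a1 and Col15a1), and without flox replicate 3 it called Col4a4. The share of all genes called under these settings is not given here, so that these counts cannot be set against a background.

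MTX in KO mice was compared with vehicle in KO mice. No collagen gene was called by edgeR, and 0% of all genes were called; 1 was higher and 4 were lower at an unadjusted p below 0.05, against 3.42% and 4.56% of all genes. Col4a4 was called by DESeq2, and by edgeR without KO replicate 3, settings for which the share of all genes called is not given here. Col1a1, Col1a2 and Col3a1 had log2 fold changes of -0.05 ± 0.39, -0.10 ± 0.35 and 0.01 ± 0.37. Col24a1, at 0.151 to 0.328 CPM in KO and 0.48 to 2.34 in KO MTX, was the gene that was higher (2.33 ± 0.81 (SE), adjusted p = 0.464). The 4 lower were Col4a3 (-1.28 ± 0.39 (SE), adjusted p = 0.381), Col4a4 (-1.71 ± 0.40 (SE), adjusted p = 0.312), Col13a1 (-2.32 ± 0.61 (SE), adjusted p = 0.346) and Col2a1. It had 12 counts in KO, 9 of them in replicate 2, and 0 in KO MTX, which is too few for a fold.

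Whether the response to MTX differed between the genotypes was tested as an interaction. No collagen gene was called by edgeR, against 0.898% of all genes called higher and 0.0909% called lower, and 5 higher and 4 lower had an unadjusted p below 0.05, against 9.58% and 5.45% of all genes. For Col1a1 the response in KO was lower than that in flox by 1.35 ± 0.55 (SE) on the log2 scale (adjusted p = 0.284), for Col1a2 by 1.17 ± 0.49 (adjusted p = 0.297) and for Col14a1 by 1.65 ± 0.64 (adjusted p = 0.270). Col22a1 (3.97 ± 0.98 (SE), adjusted p = 0.117) and Col24a1 (3.69 ± 1.06 (SE), adjusted p = 0.160) had the largest values in the other direction. Col22a1 passed the low-count filter through flox alone, which favors a value in this direction. Of 12 testis germ cell markers, 8 were called higher and 0 lower in the interaction. Of 7 epithelial and 10 epididymis markers tested 0 were called, and 1 of 9 mesothelial markers was lower. The part of these tissues in the interaction was not tested. DESeq2 called 3 genes, Col22a1, Col24a1 and Col27a1, all higher. Without flox replicate 4 edgeR called 6, with 4 higher and 2 lower, and without KO MTX replicate 3 it called 1. For these settings, too, the share of all genes called is not given here. The difference in response between flox and KO mice, seen as 13 calls against 0, was thus not itself called for any collagen gene in the edgeR fit.

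Ratios between chains that are partners in a trimer, or share a fiber or a gene pair, compare genes within a library and are given per kilobase of exon, as the mean log2 ratio ± SD over 3 mice. Col1a1 to Col1a2 was 0.42 ± 0.32 in flox, 0.79 ± 0.08 in KO, 0.60 ± 0.22 in flox MTX and 0.86 ± 0.10 in KO MTX. The flox and KO ranges did not overlap, at 0.06 to 0.65 and 0.70 to 0.86. The lengths merge all annotated exons of a gene, at 6563 bases for Col1a1 and 12426 for Col1a2. The level of a ratio depends on these lengths, so that it cannot be read as the chain composition of the trimer. In mean CPM Col1a2 was above Col1a1 in every group, at 536 against 378 in flox and 1726 against 1591 in KO. Col3a1 to Col1a1 was 0.69 ± 0.21 in flox and 0.46 ± 0.16 in KO, with overlapping libraries. Col5a3 to Col5a1 was 1.60 ± 0.22 in flox and 1.02 ± 0.20 in KO, and here too the ranges did not overlap. Col4a1 to Col4a2 was 0.19 ± 0.18 in flox and 0.34 ± 0.02 in KO, and Col6a1 to Col6a2 was 0.82 ± 0.14 and 0.85 ± 0.07. For Col4a3 to Col4a4, Col4a5 to Col4a6 and Col6a6 to Col6a3 the flox and KO ranges overlapped. Col4a3 to Col4a1, a ratio of the restricted to the general basement membrane chain, was -7.83 ± 0.44 in flox, -9.72 ± 0.06 in KO, -10.41 ± 0.04 in flox MTX and -11.20 ± 0.57 in KO MTX, and the ranges of the 4 groups did not overlap.

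Collagen chains need hydroxylases and chaperones in the cell, proteases that trim their ends, lysyl oxidases that cross-link them and proteoglycans that set the fibril width. Of 59 genes for these steps, for collagen receptors and for collagen breakdown, 58 were tested. In KO against flox, 30 rose and 3 fell, with a median log2 fold change of 0.77, where 13.9% of all genes tested rose, 17.8% fell and the median was -0.06. By step, 7 of 18 genes of hydroxylation and folding rose, 4 of 8 of procollagen processing, 4 of 5 lysyl oxidases, 6 of 8 fibril regulators, 2 of 9 receptors tested and 7 of 10 of collagenolysis. The 3 that fell were Tll2, Ddr1 and Itga2.

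Pcolce, the enhancer of procollagen C-proteinase, was at 32.9, 37.7 and 60.9 CPM in flox, 149.7, 171 and 236 in KO, 127, 105 and 59.1 in flox MTX and 163, 232 and 157.5 in KO MTX (log2 fold change in KO against flox 2.08 ± 0.33 (SE), adjusted p = 0.00306). Lum, which encodes the small proteoglycan lumican of fibrils, was at 33.3, 31.3 and 72 CPM in flox, 245, 235 and 306 in KO, 182, 125 and 57.5 in flox MTX and 268, 305 and 248 in KO MTX (2.52 ± 0.41 (SE), adjusted p = 0.00323). The lysyl oxidase Loxl2 was at 20.1, 17.5 and 30.6 CPM in flox, 50.8, 53.9 and 77.0 in KO, 38.3, 35.3 and 38.7 in flox MTX and 67.2, 74.2 and 51.3 in KO MTX (1.41 ± 0.23 (SE), adjusted p = 0.00323). In all 3 genes KO and flox did not overlap. Timp1, an inhibitor of matrix metalloproteinases, changed most in the collagenolysis list, from 2.56, 3.77 and 6.13 CPM in flox to 37.6, 38.0 and 120.2 in KO (3.98 ± 0.79 (SE), adjusted p = 0.00490), and Lair1, an inhibitory collagen receptor of leukocytes, in that of receptors (2.53 ± 0.57 (SE), adjusted p = 0.00813). The prolyl hydroxylase subunit P4ha3 had 0 counts in all flox libraries and 24 in those of KO, at least 8.63-fold higher against 3 counts over the group, a bound that leaves out counting error and the spread between mice. Beside these genes all 12 macrophage markers rose in KO, with a summed level of 501 to 861 CPM in flox and 4001 to 7735 in KO, and 8 of 10 endothelial markers, with 375 to 607 and 828 to 1305 CPM. Their part in the result was not tested.

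In flox MTX against flox, 22 of the 58 genes rose and none fell, where 8.09% of all genes tested rose and 16.1% fell, and the median log2 fold change was 0.58 against 0.05 for all genes. Fmod, a proteoglycan related to lumican, was higher in every flox MTX than in every flox library (log2 fold change 1.73 ± 0.34 (SE), adjusted p = 0.00861). Pcolce (1.15 ± 0.32 (SE), adjusted p = 0.0307), Lox (1.00 ± 0.36 (SE), adjusted p = 0.0749), Lair1 (1.48 ± 0.56 (SE), adjusted p = 0.0865) and Timp1 (2.5 ± 0.75 (SE), adjusted p = 0.0396) rose as well, but flox MTX replicate 4 lay within the flox range of each. P4ha3 had 31 counts in flox MTX, in 2 of 3 libraries. No gene of these lists was called by edgeR in KO MTX against flox MTX, in KO MTX against KO or in the interaction, where DESeq2 called 14, 1 and 3. At an unadjusted p below 0.05 there were 18, 3 and 13 of 58. Of all genes, 11.5% were higher and 12.9% lower at that p in the first of these, 3.42% and 4.56% in the second and 9.58% and 5.45% in the interaction, so that the 3 genes in KO MTX against KO are no more than the background. The count of 22 was 4 without flox replicate 3, 10 without flox replicate 1, and 11 or 13 when replicate 1 or replicate 2 of flox MTX was left out. Without flox MTX replicate 2, 18 of the genes were called in KO MTX against flox MTX, and without flox replicate 3 there were 4. In the interaction, 8 were called without flox replicate 4. Counts by DESeq2 or without a library have no share of all genes called in the same setting beside them.

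The miRNAs of the deleted locus pair with 3' UTR sites complementary to their seed. The 3' UTRs of the collagen genes were therefore searched for the letters TGAATGT on the sense strand (GENCODE M21 on GRCm38, the transcript with the longest coding sequence per gene). Of 36 collagen genes tested with an annotated 3' UTR, 8 (22.2%) held the match, as did 15.9% of 15183 genes tested. None of the 6 untested collagen genes held it. The 3' UTRs of these collagen genes were longer, with a median of 1040 bases against 903. Per 10 kilobases of 3' UTR they held 1.58 matches, against 1.43 in all genes tested, values closer than the shares. The match was present in 3 of the 10 genes that rose in KO against flox (Col5a2, Col6a3 and Col16a1), in 1 of the 7 that fell (Col4a4) and in 4 of the 19 not called that have a 3' UTR (Col4a1, Col5a1, Col6a5 and Col12a1). The 3' UTRs of Col1a1, Col1a2 and Col3a1, the genes with the largest share of the fibrillar counts, did not hold it. The sites of the 3 genes that rose, of Col4a4 and of the most abundant gene not called, Col4a1, are shown with up to 11 bases on each side, with the match in capitals. They lie at chr1:45375262-45375268 (minus strand), chr1:90766867-90766873 (minus strand), chr4:130099167-130099173 (plus strand), chr1:82448605-82448611 (minus strand) and chr8:11199005-11199011 (minus strand).
Col5a2: gtgcccagtaaTGAATGTtaagactctcc
Col6a3: ataaagtatatTGAATGTgccatga
Col16a1: ctgatgggttgTGAATGTttgtgctattc
Col4a4: attgttgttgaTGAATGTattttctttta
Col4a1: catcaggccacTGAATGTgaaacaccagc
In Col4a4 the match was followed by an A, the base opposite the first of the miRNA, and in the other 7 genes it was not. A match describes the letters of the 3' UTR and not a site in use, and the direction of change in KO was up in 3 and down in 1 of the genes that hold it.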

How the data were processed

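The deposited table held gene counts from 12 mRNA libraries, 1 per mouse. Per the labels and the study's methods, the authors trimmed paired reads with Trimmomatic 0.36, aligned them to GRCm38 with STAR 2.5.2b and counted them per gene with featureCounts (Subread 1.5.2). Strand, multi-mapping reads and normalization before deposit are not given in the sources used here; the counts were whole numbers. The sources differ on library type (poly(A) selection or ribodepletion).

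Counts were fitted with edgeR 4.0.16 in R 4.3.3: TMM factors, filterByExpr by group (18702 genes kept), glmQLFit with 1 coefficient per group over all 12 libraries, glmQLFTest, and Benjamini-Hochberg adjustment over all genes tested. A gene was called at adjusted p below 0.1 and at least 1.5-fold. Approximate SEs are the log2 fold change over the root of the F statistic. The fit was tested on simulated data. Values per library were given for the 2 most abundant members of each class by RPKM, the most changed called member per class, direction and comparison, and Col4a1 to Col4a6. Other collagen genes were named after their values were seen. RPKM used exon lengths of GENCODE M21, with all annotated exons of a gene merged. The members, gene lists and marker lists were chosen with earlier results of these data known. The mice of a group are separate animals. Libraries of the same group were compared for repeated deposits, and none was found. Alternatives were RLE or library-size scaling, 2 other filters, a replicate block, 2-group fits, other limits, DESeq2 1.42.0 and leaving out each library.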

Additional observations from a re-analysis of the deposited data

How the results depend on the processing

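None of the results computed under the alternatives reversed. In KO against flox, 10 collagen genes rose and 7 fell. At an absolute log2 fold change of at least 1.5, 6 rose and 14 pathway genes were called in place of 33; with at least 10 counts in every library, which removes low genes from the test, 4 fell. Leaving out each library in turn gave 6 to 11 rises, 6 to 10 falls and 28 to 35 pathway calls. In MTX against vehicle in flox, 5 rose and 8 fell, with 22 pathway calls. The rises were 3 with library size only, 1 with the 2 groups alone and 2 at the log2 limit of 1.5; the falls were 4 with at least 10 counts. The pathway calls were 9, 3, 5 and 13 under these settings. Leaving out each library gave 1 to 11 rises, 7 to 11 falls and 4 to 30 pathway calls.

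The labels do not say what the replicate numbers stand for. Residuals of the 12 same-numbered pairs of libraries had a median correlation of 0.0353 (-0.273 to 0.254), against 0.0112 for the 42 other pairs. With so few pairs and this range, these values cannot decide whether the numbers pair the mice. With the replicate block, 1 collagen and 7 pathway genes were called as risen in flox MTX against flox, and no other count moved by over 1.5 times.

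In KO MTX against flox MTX, edgeR called 0 collagen genes. DESeq2 gave 2 rises and 2 falls, no filter 1 fall and at least 10 counts 1 fall; leaving out each library gave 0 to 3 rises and 0 to 4 falls. Pathway calls were 0, with 5 under no filter, 6 with at least 10 counts, 14 by DESeq2 and 0 to 18 without each library. In KO MTX against KO, DESeq2 gave 1 collagen fall and 1 pathway call, and leaving out each library 0 to 1 falls. In the interaction, collagen rises were 0, with 1 under no filter, 3 by DESeq2 and 0 to 4 without each library; falls were 0 to 2. Pathway calls in the interaction were 0, with 1 for RLE factors, 1 under no filter, 3 by DESeq2 and 0 to 8 without each library. Except where stated, the cause of these shifts was not tested. Apart from scaling, the share of all genes called under an alternative is not given here, so that a shift may not be particular to these genes. Library size as the only scaling moved the median log2 fold change of all genes by -0.20 in flox MTX against flox, 0.17 in KO MTX against flox MTX and 0.18 in the interaction.

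Depth limits genes of few counts, such as Col2a1, Col13a1, Col22a1 and Col26a1, and left 6 genes untested. With 3 mice per group, an exact permutation test of 1 value cannot go below p = 0.1, so single calls rest on the spread shared over the 4 groups.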
